A study of Mus musculus with 10 samples.

Results

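The cells described here are thick ascending limb cells of the mouse kidney, followed from the uninjured cortex to day 14 after injury. A cell barcode was counted as a thick ascending limb cell when it had at least 1 UMI (a counted RNA molecule) of Slc12a1, at least 4 UMIs of Slc12a1 and Umod together, and 0 UMIs of Slc12a3, Aqp2, Ptprc and Pecam1, which mark the distal convoluted tubule, the collecting duct, leukocytes and endothelium. This rule found 3337 cells among 52797 barcodes with at least 500 detected genes and at most 50% mitochondrial UMIs. The 6 genes of the rule chose the cells, so their values are given as a description and are not tested.

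The material was kidney cortex of mice aged 4 weeks, dissociated and captured one by one in droplets (Drop-seq), where a bead carrying a cell barcode binds the polyadenylated RNA of 1 cell. There was 1 library of normal kidney, called the control below, and 1 library each of injured kidney on days 1, 2 and 4. Days 7, 11 and 14 had 2 libraries each, which makes 10 libraries. The labels give the injured kidneys by day only, with no kind of injury, strain, sex or animal. The series asks whether injury brings back developmental gene programmes and loosens cell identity. Nothing in the labels says that the 2 libraries of a day came from separate animals, so p-values measure the spread between these libraries, which may be technical. Every comparison with normal kidney rests on the 1 control library.

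The thick ascending limb reabsorbs sodium chloride without water. Sodium, potassium and chloride enter the cell through the apical cotransporter NKCC2, encoded by Slc12a1, which is the target of loop diuretics. Potassium returns to the lumen through ROMK (Kcnj1), chloride leaves on the basolateral side through channels that need the subunit barttin (Bsnd), and the resulting voltage drives calcium and magnesium between the cells through claudins. The segment also makes uromodulin (Umod), the most abundant protein of normal urine, and the precursor of epidermal growth factor (Egf), which is known to fall in injured kidneys.

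Promoter sequence is shown for 4 genes that define the segment, since results below turn on them, and for 2 genes of the injury list. These 2 were chosen because their windows hold an AP-1 site, as the most abundant on day 7 of the 6 injury genes with such a match. Each line gives the 250 bases before the annotated start from RefSeq on build GRCm38.p6, 5' to 3' on the gene's strand. Capitals mark 3 short motifs on either strand, namely GTTAAT (an HNF1 half-site), AAGGTCA (a nuclear receptor half-site of the ERR type) and TGACTCA (an AP-1 site). The windows lie at chr2:125152350-125152599 (plus strand, Slc12a1), chr7:119479263-119479512 (minus strand, Umod), chr3:129755323-129755572 (minus strand, Egf), chr16:26526772-26527021 (minus strand, Tmem207), chr9:69453433-69453682 (plus strand, Anxa2) and chr3:93520246-93520495 (plus strand, S100a11).
Slc12a1: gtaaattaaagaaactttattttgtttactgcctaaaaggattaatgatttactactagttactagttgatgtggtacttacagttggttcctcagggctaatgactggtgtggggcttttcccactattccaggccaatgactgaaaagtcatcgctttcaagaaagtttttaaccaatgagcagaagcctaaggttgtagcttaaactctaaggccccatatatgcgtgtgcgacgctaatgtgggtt
Umod: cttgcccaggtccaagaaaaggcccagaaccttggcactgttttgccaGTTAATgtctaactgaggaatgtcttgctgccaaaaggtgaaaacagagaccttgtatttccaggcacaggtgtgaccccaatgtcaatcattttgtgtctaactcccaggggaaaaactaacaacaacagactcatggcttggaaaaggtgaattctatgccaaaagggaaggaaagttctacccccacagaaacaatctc
Egf: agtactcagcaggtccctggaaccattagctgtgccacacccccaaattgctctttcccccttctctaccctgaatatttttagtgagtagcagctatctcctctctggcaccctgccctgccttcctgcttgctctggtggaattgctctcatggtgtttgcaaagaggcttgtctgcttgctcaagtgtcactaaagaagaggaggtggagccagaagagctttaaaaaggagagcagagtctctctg
Tmem207: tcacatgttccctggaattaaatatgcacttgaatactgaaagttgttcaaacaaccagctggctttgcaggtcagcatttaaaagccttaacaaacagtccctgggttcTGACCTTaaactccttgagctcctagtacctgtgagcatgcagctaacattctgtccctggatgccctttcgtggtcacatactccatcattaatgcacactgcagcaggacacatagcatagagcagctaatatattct
Anxa2: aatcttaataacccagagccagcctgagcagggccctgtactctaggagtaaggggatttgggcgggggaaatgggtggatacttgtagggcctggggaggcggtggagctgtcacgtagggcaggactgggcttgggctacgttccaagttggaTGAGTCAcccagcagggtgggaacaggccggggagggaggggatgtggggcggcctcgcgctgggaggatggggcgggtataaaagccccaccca
S100a11: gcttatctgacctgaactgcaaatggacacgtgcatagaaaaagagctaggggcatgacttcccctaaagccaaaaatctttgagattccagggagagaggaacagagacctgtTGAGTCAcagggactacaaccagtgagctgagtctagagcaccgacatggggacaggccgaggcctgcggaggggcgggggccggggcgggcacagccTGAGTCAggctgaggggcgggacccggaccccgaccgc

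The Umod window held 1 HNF1 half-site, starting 202 bases before the start site, and the Tmem207 window held 1 ERR-type half-site on the opposite strand, 140 bases before it. The windows of Slc12a1 and Egf held none of the 3 motifs. The AP-1 site for which the other pair was chosen stood once before Anxa2 and in 2 copies before S100a11. Of 27025 such windows over the genes of the RefSeq table, 6.52% held the HNF1 half-site, 4.05% the ERR-type half-site and 4.43% the AP-1 site. The AP-1 site was in 6 of 26 windows of the injury list described below (23.1%), and the ERR-type half-site was in 1 of 30 windows of the nuclear oxidative phosphorylation list (3.33%). A match of letters is a description of the window and not a binding site, and no match says nothing about the factor.

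The number of thick ascending limb cells was 760 in the control and 213, 140 and 251 on days 1, 2 and 4. The libraries of day 7 held 158 and 276, those of day 11 held 398 and 348, and those of day 14 held 395 and 398. Their summed counts came to 525299 to 4642124 UMIs per library, with medians of 1904 to 3669 UMIs per cell. Whole libraries held 7091848 to 31632205 UMIs. Of the 52797 kept barcodes, 52735 had distinct sequences, and no pair of libraries shared more than 4. The 2 libraries of each replicated day were not 1 library deposited in 2 copies, since the chi-square over genes divided by its degrees of freedom was 4.24 for day 7, 5.19 for day 11 and 3.15 for day 14.

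The rule was set against markers it did not use. Summed over 9 further thick ascending limb markers, the level was 10596 CPM in the control, and 1181, 1399 and 2402 on days 1, 2 and 4, where CPM are counts per 1000000 of a library's summed counts scaled by edgeR's trimmed mean of M values (TMM). The replicates had 1558 and 2616 for day 7, 7021 and 6649 for day 11, and 11585 and 11079 for day 14. Egf made up most of this sum in the control and on day 14, and its own values are given below. All 9 markers were detected in every library, and the sum on days 1 to 7 stood below every other library. Among barcodes with at least 3 UMIs of 5 myeloid genes, which should lack both chooser genes, the Slc12a1 and Umod threshold was passed by 0% to 4.65% per library, and the step that removes Ptprc came on top of it. The 4 excluding genes removed 13.9% to 38.6% of the barcodes that passed the threshold in a library. Just outside the threshold, at a sum of 3 UMIs, 229 barcodes of all libraries had Egf in 18.8% and Kcnj1 in 10.9%. Just inside, at 4 UMIs, 154 cells had Egf in 27.9% and Kcnj1 in 15.6%. At these 2 sums Egf was in 16 of 44 and 18 of 31 in the control. It was in 0 of 32 and 0 of 20 on day 1, 0 of 20 and 2 of 13 on day 2, and 2 of 23 and 2 of 26 on day 4. The day 7 replicates had 0 of 19 and 1 of 18, and 1 of 21 and 1 of 16. Egf was low on these days, so there it cannot check the threshold. The highest myeloid share, 4.65%, was that of day 1.

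RNA quality moved with the days. The median mitochondrial share of the thick ascending limb cells was 33.5% in the control and 15.0%, 8.68% and 6.36% on days 1, 2 and 4. The replicates had 4.53% and 5.43% for day 7, 20.7% and 15.5% for day 11, and 25.6% and 29.2% for day 14. Proximal tubule markers, 24 genes of the cortex's most common cell, made up 0.943% of the cells' UMIs in the control and 0.0682% and 0.0852% on day 7. Days 1, 2 and 4 had 0.0987%, 0.669% and 0.370%, and the libraries of days 11 and 14 had 0.417% to 0.933%. The part of these shares in the results was not tested, except where a value is given for a limit on them. These limits are at most 25% mitochondrial UMIs and at most 10% proximal UMIs.

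Thick ascending limb cells were 12.4% of the kept barcodes in the control (exact Clopper-Pearson 95% interval 11.6 to 13.2). Day 1 had 5.97% (5.21 to 6.80), day 2 had 3.43% (2.89 to 4.03) and day 4 had 3.91% (3.45 to 4.41), so each early library lay under the control's interval. Day 7 had 4.86% ± 0.701, day 11 had 6.97% ± 0.545 and day 14 had 6.06% ± 0.528 (SD, n = 2 libraries each). All 9 injured libraries lay below the control. The rule reads Slc12a1 and Umod, so a cell that lost these transcripts is not counted. Among barcodes with at most 25% mitochondrial UMIs the control's share was 4.91% (4.2 to 5.69). Under that limit day 1 (5.95%) and day 11 (5.94% ± 0.169) lay above the control, day 7 (4.83% ± 0.656) lay next to it, and day 2 (3.70%), day 4 (3.89%) and day 14 (3.30% ± 0.260) lay below its interval. Counted among thick ascending limb and other tubule cells together, a group defined below, the share was 23.6% in the control, 21.1%, 8.45% and 9.52% for days 1, 2 and 4, 20.1% ± 0.954 for day 7, 13.3% ± 1.90 for day 11 and 9.47% ± 0.641 for day 14. In that count day 7 lay above days 11 and 14, the reverse of their order among all kept barcodes. The shares were not tested between days, since an exact permutation of 2 libraries against 2 cannot go below p = 0.333. Intervals cover counting error only.

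**Figure D1:**
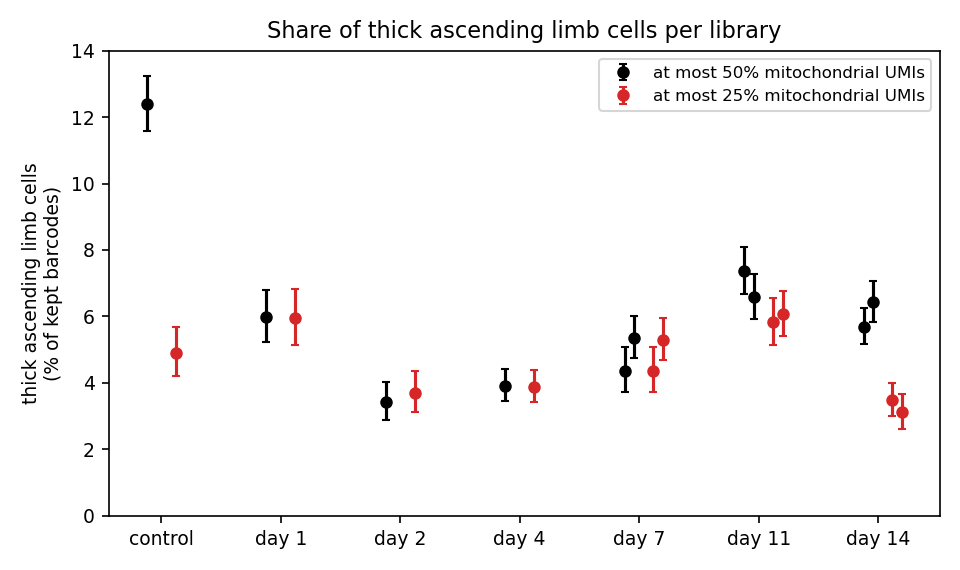
Share of thick ascending limb cells among kept barcodes (vertical axis, percent) in each of the 10 libraries by day (horizontal axis), with exact 95% binomial intervals as bars. Black points are barcodes with at most 50% mitochondrial UMIs and red points those with at most 25%. The black control point stands at 12.4% and the red one at 4.91%.

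Levels below are such CPM in the summed counts of the thick ascending limb cells of a library. In these sums, fewer cells with a transcript and less of it per cell cannot be told apart. Changes are log2 differences ± SE, tested by edgeR's quasi-likelihood F test and adjusted over 11369 genes by the Benjamini-Hochberg method, with a threshold of 0.05. Days 1, 2 and 4 have 1 library each and entered no test of their own, so genes there are counted only when over 2-fold from the control and at least 20 CPM in either library.

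Day 7 against the control called 2181 genes (19.2%), 982 higher and 1199 lower. Day 11 called 1017 against the control, 422 higher (3.71%) and 595 lower (5.23%), and day 14 called 135, 58 higher (0.51%) and 77 lower (0.677%). Between days, 2796 genes differed from day 7 to day 11, 1620 higher (14.2%) and 1176 lower (10.3%), and 617 from day 11 to day 14, 201 higher and 416 lower. From day 7 to day 14 it was 2412 (21.2%), 1415 higher (12.4%) and 997 lower (8.77%). The scaling bears on the day 7 results, because the TMM factors were 1.31 and 1.28 on day 7 against 0.811 in the control and 0.840 to 0.887 on days 11 and 14. Scaled by total UMIs instead, the median log2 change of all genes moved by 0.67 for day 7 against the control and by -0.56 for day 11 against day 7. The calls were then 3651 higher and 523 lower for day 7 against the control. They were 567 and 437 for day 11 against the control, and 764 and 3549 for day 11 against day 7. Total UMIs include the mitochondrial UMIs, whose share differed between days as given above. The part of that share in the shift was not tested. With TMM but without the mitochondrial genes, 918 were higher and 1259 lower for day 7 against the control. For day 11 against day 7 it was 1655 and 1109.

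The segment's defining transcripts come first. Slc12a1, the NKCC2 cotransporter, was at 9789.6 CPM in the control, 1592, 2069.5 and 2156 for days 1, 2 and 4, 2702 and 3230.2 for day 7, 5277 and 4056 for day 11, and 6370.2 and 7056 for day 14. Every injured library was below the control, and the days 11 and 14 libraries were above those of days 1 to 7. Per 1000000 total UMIs without TMM the second order did not hold, with Slc12a1 at 3598 in day 11 replicate 2 against 3537 and 4121 in the day 7 libraries. Umod was at 7672 CPM in the control, 5700.0, 3743 and 5332 for days 1, 2 and 4, 3166 and 5753 for day 7, 11841 and 12904 for day 11, and 10581 and 9070.1 for day 14. The libraries of days 11 and 14 were all above the control, and those of days 1 to 7 all below it. Without TMM the Umod level of the control was 6222 per 1000000 total UMIs, and day 4 (6429) and day 7 replicate 2 (7339) were above it. The cells were chosen on these transcripts, so neither was tested.

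Egf, the growth factor precursor, was almost lost early and returned by day 14. Its level was 7430.4 CPM in the control, 82.0, 126 and 668 for days 1, 2 and 4, 91.6 and 472 for day 7, 2435 and 2855 for day 11, and 7346 and 6792 for day 14. The libraries of days 1 to 7 held at most 668, day 11 lay between them and the control, and day 14 stood next to the control. The change was -4.67 ± 0.48 (adjusted p = 3.64e-06) for day 7 against the control and 3.18 ± 0.42 (adjusted p = 3.71e-05) for day 11 against day 7. Day 14 stood at -0.07 ± 0.46 (adjusted p = 0.962) from the control. Its rise from day 11 to day 14 (1.42 ± 0.39, adjusted p = 0.0416) missed the threshold without any 1 library of those days, for example 1.31 (adjusted p = 0.24) without day 11 replicate 1.

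Tmem207, a small membrane protein of this segment's lists whose task is less well known, was at 260.3 CPM in the control, 21.6, 5.27 and 34.6 for days 1, 2 and 4, 20.4 and 34.4 for day 7, 402 and 225 for day 11, and 244 and 195 for day 14. Days 1 to 7 formed a group far below all other libraries. It fell by day 7 (-3.15 ± 0.34, adjusted p = 6.38e-06) and rose by day 11 (3.43 ± 0.32, adjusted p = 1.17e-06). Day 14 stood at -0.25 ± 0.31 (adjusted p = 0.737) from the control.

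These genes belong to a list of 9 genes of magnesium and calcium handling. In day 7 against the control 3 of the 9 fell and none rose, against 10.5% of all tested genes lower and 8.64% higher (19.2% called). The 3 were Egf, Tmem207 and Cldn10, and the same 3 were higher on day 11 than on day 7, where 24.6% of all genes were called. Cldn10, the sodium-selective claudin of the limb, was at 1148 CPM in the control, 291, 350.2 and 626 for days 1, 2 and 4, 496 and 775 for day 7, 2022 and 1489 for day 11, and 1269.7 and 1545 for day 14. Its fall on day 7 (-0.84 ± 0.25, adjusted p = 0.0266) was not called without day 7 replicate 1 (-0.56, adjusted p = 0.104) or under scaling by total UMIs (-0.18, adjusted p = 0.591), and its rise by day 11 was 1.46 ± 0.22 (adjusted p = 0.000116). The divalent cation claudins did not pass the test against the control. Cldn16 was at 244 CPM in the control, 222, 298 and 283 for days 1, 2 and 4, 231 and 349 for day 7, 323 and 329.5 for day 11, and 463 and 454 for day 14, with log2 differences of 0.27 ± 0.25 (adjusted p = 0.518) on day 7 and 0.91 ± 0.25 (adjusted p = 0.0972) on day 14 from the control, and day 14 exceeded day 7 (0.64 ± 0.20, adjusted p = 0.0329). For Cldn19, the partner of Cldn16, the day 7 value was -0.14 ± 0.24 (adjusted p = 0.744), and for Casr, the calcium-sensing receptor, -0.50 ± 0.30 (adjusted p = 0.276). The median of this list was -0.46 on day 7 and turned to 0.21 when scaled by total UMIs.

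Of 18 genes of salt transport, 9 fell and none rose on day 7 (10.5% and 8.64% of all genes), and 12 were higher and 1 lower on day 11 than on day 7 (14.2% and 10.3%). None was called on day 14 against the control, where 1.19% of all genes were called, and the list's median was 0.09. Under scaling by total UMIs the day 7 count was 5 lower and 2 higher, with a median of -0.09 in place of -0.76, and the day 11 against day 7 count was 7 higher and 4 lower. With cells thinned to 1000 UMIs it was 3 lower of 16 on day 7 and 6 higher of 16 from day 7 to day 11. In the single libraries 8 of the 18 genes on day 1, 8 on day 2 and 7 on day 4 were over 2-fold below the control and none above, and on each day 2 of the 18 were under 20 CPM both there and in the control. Over 2-fold either way were 24.8%, 24.2% and 23.8% of all genes on these days.

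Kcnj1, the ROMK channel, was at 646 CPM in the control, 246, 216 and 244 for days 1, 2 and 4, 321 and 333 for day 7, 573 and 464 for day 11, and 799 and 693 for day 14. All libraries of days 1 to 7 held at most 333 and all others at least 464. It fell on day 7 (-0.98 ± 0.21, adjusted p = 0.00356), and its rise by day 11 (0.66 ± 0.18, adjusted p = 0.0144) was lost without day 11 replicate 1 (0.50, adjusted p = 0.147). Under scaling by total UMIs neither was called (-0.31, adjusted p = 0.268; 0.10, adjusted p = 0.699). Bsnd, which encodes barttin, was at 130.4 CPM in the control, 40.3, 39.5 and 49.1 for days 1, 2 and 4, 32.0 and 57.4 for day 7, 99.3 and 132 for day 11, and 177 and 140.1 for day 14. It fell on day 7 (-1.46 ± 0.30, adjusted p = 0.00229) and was higher on day 11 (1.28 ± 0.28, adjusted p = 0.00281), and both calls were lost under scaling by total UMIs (-0.80, adjusted p = 0.054; 0.72, adjusted p = 0.0529).

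Wnk1, the kinase that acts on the cotransporters of the distal nephron, was at 443 CPM in the control, 93.5, 61.9 and 74.7 for days 1, 2 and 4, 61.1 and 66.0 for day 7, 201 and 308 for day 11, and 480.0 and 441 for day 14. Its change was -2.79 ± 0.26 (adjusted p = 1.54e-06) on day 7 and 1.99 ± 0.24 (adjusted p = 1.57e-05) from day 7 to day 11. Slc16a7, a carrier of pyruvate and lactate, changed alike, by -2.79 ± 0.27 (adjusted p = 2.02e-06) and 2.06 ± 0.25 (adjusted p = 1.6e-05). Atp1b1, the beta subunit of the sodium pump, changed by -0.74 ± 0.17 (adjusted p = 0.00499) on day 7, and the rise to day 11 was 0.53 ± 0.14 (adjusted p = 0.012). Under scaling by total UMIs these became -0.07 (adjusted p = 0.772) and -0.04 (adjusted p = 0.834), and the rise was also lost without day 11 replicate 1 (0.46, adjusted p = 0.0758) or either day 14 library (0.53, adjusted p = 0.0501; 0.53, adjusted p = 0.0529). Kcnj16, a basolateral potassium channel subunit, was the member that fell from day 7 to day 11. It was at 531 CPM in the control, 862, 621 and 509 for days 1, 2 and 4, 589 and 489.8 for day 7, 288 and 285 for day 11, and 684 and 626 for day 14. The day 11 libraries were the lowest of these pairs, with a change of -0.91 ± 0.18 (adjusted p = 0.00138) from day 7 and a rise of 1.19 ± 0.18 (adjusted p = 0.00089) to day 14. Fxyd2, the gamma subunit of the pump, did the reverse between the same days, with 1.15 ± 0.18 (adjusted p = 0.000168) and then -1.19 ± 0.18 (adjusted p = 0.00089).

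Among 16 tested genes of a list of other thick limb identity (18 listed), 9 fell and 1 rose on day 7, where 10.5% of all genes fell and 8.64% rose. By day 11, 8 were higher and 1 was lower than on day 7 (14.2% and 10.3% of all genes), and none was called on day 14 against the control. Scaled by total UMIs the day 7 count was 5 lower and 2 higher. Wfdc15b, a secreted protein with a whey acidic protein domain, was at 4712 CPM in the control, 194, 330.4 and 550.1 for days 1, 2 and 4, 191 and 505 for day 7, 5141 and 4136 for day 11, and 3493 and 3669 for day 14. Days 1 to 7 held 191 to 550.1 and all other libraries at least 3493. The changes were -3.73 ± 0.33 (adjusted p = 1e-06) and then 3.71 ± 0.31 (adjusted p = 4.23e-07). Ppp1r1a, an inhibitor of protein phosphatase 1, behaved likewise, at -2.0 ± 0.32 (adjusted p = 0.000277) and 2.96 ± 0.29 (adjusted p = 2.2e-06), and both day 11 libraries (2024 and 2286) were above the control's 1112.

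Sfrp1, a secreted Wnt antagonist, was 1459 CPM in the control, 714 and 685 on day 7 (-1.06 ± 0.18, adjusted p = 0.000542, lost under scaling by total UMIs at -0.39, adjusted p = 0.116), and 2495 and 2391 on day 14. Its difference on day 14 from the control was 0.74 ± 0.19 (adjusted p = 0.0786), so it missed the threshold although both libraries were above the control. Ptger3, the prostaglandin E2 receptor EP3, fell on day 7 (-1.11 ± 0.33, adjusted p = 0.027), a call lost without day 7 replicate 1 (-0.73, adjusted p = 0.114) or under scaling by total UMIs (-0.45, adjusted p = 0.296), and rose to 437 and 286 on day 11 (2.06 ± 0.30, adjusted p = 8.21e-05). Defb1, an antimicrobial defensin of the distal nephron, was the member that rose. It was 411 CPM in the control, 2662, 1159.8 and 2012 for days 1, 2 and 4, 768 and 1178 for day 7, 873 and 735 for day 11, and 343 and 508 for day 14, and its day 7 change was 1.25 ± 0.28 (adjusted p = 0.00433). Sostdc1, a BMP and Wnt antagonist, stood at 1.17 ± 0.28 (adjusted p = 0.058) on day 14 from the control, short of the threshold.

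**Figure D2:**
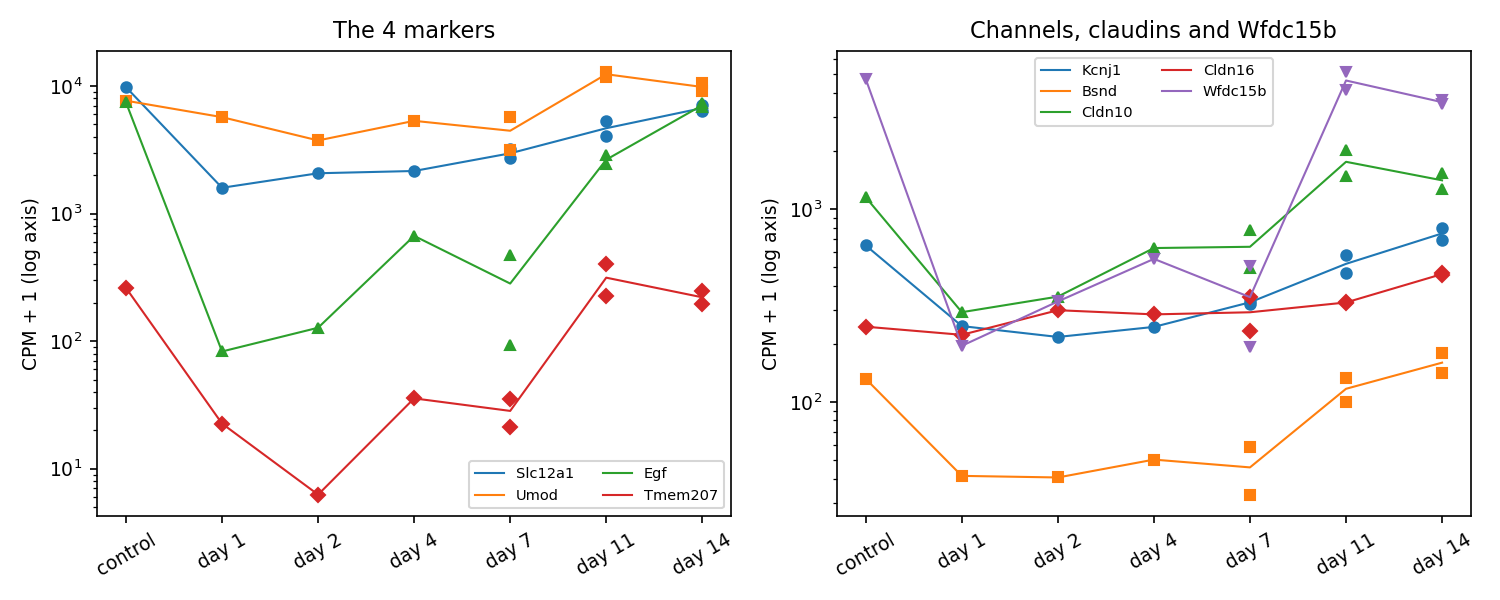
Levels of the segment's transcripts (vertical log axis, CPM + 1) in each library by day, with points for libraries and lines through the means of a day. Egf, Tmem207 and Wfdc15b are low on days 1 to 7 and high in the control and on days 11 and 14, while Cldn16 lies between 222 and 463 CPM throughout.

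Of 15 tested genes on a list of segment transcription factors (16 listed), 2 rose and 3 fell on day 7, against 8.64% and 10.5% of all genes. None was called on day 11 or day 14 against the control (8.95% and 1.19% of all genes). Ppargc1a, a coactivator of mitochondrial genes, was 331 CPM in the control, 64.7, 64.5 and 119 for days 1, 2 and 4, 96.0 and 110.1 for day 7, 205 and 216 for day 11, and 229.7 and 214 for day 14. It fell by day 7 (-1.67 ± 0.23, adjusted p = 6.14e-05) and rose by day 11 (1.01 ± 0.21, adjusted p = 0.00169), the rise lost under scaling by total UMIs (0.45, adjusted p = 0.0955). Esrrb, an orphan nuclear receptor of the ERR family, followed with -1.70 ± 0.36 (adjusted p = 0.00256), lost without day 7 replicate 2 (-1.48, adjusted p = 0.0565), and 1.92 ± 0.34 (adjusted p = 0.000578). Hnf4a was the other member that fell on day 7, with 111 UMIs in the control and 4 and 5 on day 7. Proximal tubule markers fell on that day as well, as given further on. Irx3 and Pax8, factors of the developing nephron, rose on day 7 (2.17 ± 0.35, adjusted p = 0.00029 and 1.41 ± 0.29, adjusted p = 0.00201) and fell by day 11 (-1.99 ± 0.34, adjusted p = 0.000355 and -1.45 ± 0.27, adjusted p = 0.000825). The patterning factors of this segment were not called on day 7, with -0.26 ± 0.30 (adjusted p = 0.601) for Irx1, 0.09 ± 0.29 (adjusted p = 0.867) for Irx2 and -0.16 ± 0.28 (adjusted p = 0.748) for Pou3f3. The list's median on day 7, -0.16, became 0.51 with 6 higher and 3 lower under scaling by total UMIs, and 0.11 with 3 higher and 1 lower without day 7 replicate 2, so the direction of the segment transcription factors turns with these choices.

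Of 38 nuclear genes of oxidative phosphorylation, 37 fell on day 7 and none rose, where 10.5% of all genes fell. All 38 were higher on day 11 than on day 7, against 14.2% of all genes. None was called on day 14 against the control. Under scaling by total UMIs 25 of 38 fell on day 7, and 37 rose from day 7 to day 11. In cells with at most 25% mitochondrial UMIs the day 7 count was again 37 of 38, with a median of -1.22 against -1.33. Cox4i1, a subunit of cytochrome c oxidase, was at 3570.0 CPM in the control, 1617, 1386 and 1816 for days 1, 2 and 4, 1465 and 1445 for day 7, 4695 and 4111 for day 11, and 4399 and 4392 for day 14. The libraries of days 1 to 7 held at most 1816 and all others at least 3570.0, and the changes were -1.30 ± 0.17 (adjusted p = 5e-05) and 1.60 ± 0.15 (adjusted p = 1.33e-06). Uqcr11, of complex III, had the larger changes of -1.85 ± 0.19 (adjusted p = 4.37e-06) and 2.33 ± 0.17 (adjusted p = 2.1e-07). Ndufa7, of complex I, was the 1 nuclear gene not called on day 7 (-0.45 ± 0.21, adjusted p = 0.148).

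All 13 protein-coding genes of the mitochondrial genome fell on day 7, with a median of -2.09, and 11 rose by day 11 (10.5% and 14.2% of all genes). The count was 12 of 13 under scaling by total UMIs and 13 of 13, with a median of -1.67, in cells with at most 25% mitochondrial UMIs. Both limits on mitochondrial UMIs choose barcodes by these same genes, so the count at 25% is no separate check. The 50% limit left out 611 barcodes in the control and 0 and 2 on day 7. The part of that choice in these changes was not tested. The mitochondrial share fell and returned in other tubule cells, a group defined below, as well. Their median was 22.9% in the control, 12.2%, 12.8% and 7.86% on days 1, 2 and 4, and 4.28% and 6.28% on day 7. Day 11 had 14.6% and 11.5%, and day 14 had 15.7% and 18.1%. mt-Co1 was at 19066 CPM in the control, 11456, 5929 and 5078 for days 1, 2 and 4, 4391 and 5071 for day 7, 24313 and 26728 for day 11, and 24874 and 24424 for day 14. Every library of days 1 to 7 lay below the control. The change was -2.01 ± 0.15 (adjusted p = 2.44e-07) on day 7, and day 11 exceeded day 7 (2.43 ± 0.14, adjusted p = 1.08e-08). mt-Nd1, a complex I subunit, was above the control on day 14 at 29120.0 and 32947 against 12136 (1.35 ± 0.18, adjusted p = 0.00131). The other mitochondrial gene called on day 14 against the control was mt-Nd6, and it was lower. From day 11 to day 14, mt-Nd1 was 1 of 7 mitochondrial genes that rose, where 1.77% of all genes rose (1.31 ± 0.14, adjusted p = 7.81e-05). Over the same days mt-Co1 stood at -0.05 ± 0.13 (adjusted p = 0.897). The day 11 to day 14 count in the mitochondrial genome list was 11 of 13 without either day 7 library.

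Fatty acid oxidation fell as well, with 15 of 18 genes lower on day 7 (10.5% of all genes) and 15 higher by day 11 (14.2%), and none called on day 14 against the control. Under scaling by total UMIs 6 fell on day 7 and 7 rose by day 11, and DESeq2 called 9 lower on day 7. Without day 11 replicate 1, 9 rose from day 7 to day 11. Etfa, which hands electrons to the respiratory chain, was 500.2 CPM in the control, 119, 141 and 171 for days 1, 2 and 4, 143 and 154 for day 7, 632 and 602 for day 11, and 400.0 and 421 for day 14, with changes of -1.75 ± 0.21 (adjusted p = 1.85e-05) and 2.05 ± 0.19 (adjusted p = 1.17e-06). Acadm, the medium-chain acyl-CoA dehydrogenase, changed by -1.53 ± 0.21 (adjusted p = 5.3e-05) and rose by 1.23 ± 0.18 (adjusted p = 0.000105). Ehhadh, of the peroxisome, is also high in proximal tubule and changed by -2.67 ± 0.54 (adjusted p = 0.0018).

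Glycolysis was divided on day 7. Of 18 genes 3 rose and 6 fell, against 8.64% and 10.5% of all genes, with a median of -0.58 that became 0.09 under scaling by total UMIs (3 higher, none lower). Without day 7 replicate 2 the count was 1 higher and 10 lower. Hk2, the inducible hexokinase, had 0 UMIs in the control and 13.1 and 11.5 CPM on day 7, at least 15.0-fold higher against 3 counts over the group (adjusted p = 0.000645). Pkm, pyruvate kinase, changed by -1.15 ± 0.29 (adjusted p = 0.0089), lost under scaling by total UMIs (-0.49, adjusted p = 0.193). By day 11, 13 stood above and 2 below day 7 (14.2% and 10.3% of all genes), among them Pkm (1.80 ± 0.25, adjusted p = 6.58e-05) and Gapdh (1.76 ± 0.22, adjusted p = 2.37e-05) upward, and Hk2 and the kinase Pdk1 (-1.20 ± 0.34, adjusted p = 0.0154) downward. Gapdh was 265 and 235 CPM for day 11 against 107 in the control and 103 and 128 for day 14, a change of -1.12 ± 0.21 (adjusted p = 0.00408) from day 11, lost without day 11 replicate 1 (-1.02, adjusted p = 0.0518) or day 14 replicate 1 (-0.97, adjusted p = 0.0809).

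Most tubular injury genes rose. Of 34 tested genes on the injury list (35 listed), 29 rose and none fell on day 7 (8.64% and 10.5% of all genes), and 15 were still higher than the control on day 11 (3.71% of all genes higher). On day 14, 4 were higher (0.51% of all genes), and 27 of 34 fell from day 7 to day 11 (10.3%). The 29 include Havcr1 and Vcam1, which barcodes with myeloid genes hold as well, as given below. Such barcodes also hold Lcn2, Spp1, Clu, Krt8 and Krt18, with values likewise given below. The list was drawn up with earlier results of these data known, so its direction is not independent evidence. The day 7 median was 4.61, or 3.21 with genes at 0 in a group set to their bound.

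Lcn2, which encodes NGAL, a urinary marker of kidney injury made in the distal nephron, was at 5.05 CPM in the control, 1746, 1145 and 1241 for days 1, 2 and 4, 1043 and 1360.4 for day 7, 94.9 and 73.0 for day 11, and 18.5 and 21.0 for day 14. The libraries of days 1 to 7 all held at least 1043, and those of day 14 lay between the control and day 11. The changes in Lcn2 were 7.87 ± 0.37 (adjusted p = 1.82e-09) for day 7 and -3.83 ± 0.22 (adjusted p = 1.08e-08) for day 11 against day 7. Day 14 was still higher than the control (1.95 ± 0.38, adjusted p = 0.017), a call lost without day 14 replicate 2 (1.86, adjusted p = 0.101). Spp1, osteopontin, a secreted phosphoprotein, was at 1819 CPM in the control, 41517, 24272 and 20336 for days 1, 2 and 4, 11960.0 and 20717 for day 7, 5476 and 5067 for day 11, and 3624 and 4005 for day 14. It was highest in the day 1 library and was called on day 7 (3.17 ± 0.27, adjusted p = 7.21e-07). On day 14 it remained above the control (1.07 ± 0.24, adjusted p = 0.0381), a call lost without either day 14 library, for example 1.0 (adjusted p = 0.194) without replicate 2. Clu, the chaperone clusterin, was at 55.0 CPM in the control, 5651, 4618 and 4439.5 for days 1, 2 and 4, 4343 and 2671 for day 7, 123 and 106 for day 11, and 80.7 and 139 for day 14, a rise of 5.99 ± 0.39 (adjusted p = 5.86e-08) on day 7. Its day 14 value of 1.0 ± 0.32 (adjusted p = 0.135) missed the threshold. With cells thinned as above, Clu was in 90.3% of day 1 thick ascending limb cells and in 80.2% of barcodes with myeloid genes. On day 7 it was in 86.6% and 71.4% of the former and in 55.5% and 24.2% of the latter. Spp1 on day 7 was in 100% and 99.6% against 81.7% and 64.2%, and Lcn2 in 49.6% and 53.5% against 22.9% and 5.89%. The part of RNA from other cells in these levels was not tested.

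Havcr1, which encodes KIM-1 and is known foremost from injured proximal tubule, was at 0.531 CPM in the control, 203, 11.8 and 524 for days 1, 2 and 4, 128 and 43.6 for day 7, 0 and 0 for day 11, and 0 and 0 for day 14. The control had 2 UMIs, and none was counted in the libraries of days 11 and 14. Day 7 was called higher than the control (adjusted p = 2.38e-05), and day 11 was at least 45.3-fold lower than day 7. After thinning to 1000 UMIs, Havcr1 was detected in 8.66% and 2.49% of the thick ascending limb cells of day 7, in 9.94% and 2.59% of the myeloid-marked barcodes described above, which should lack it, and in 35.9% and 26.0% of the other tubule cells described below. Before thinning the shares were 15.2% and 6.88% in thick ascending limb cells and 13.7% and 5.70% in myeloid-marked barcodes, whose median depths were 1909.5 and 2343.5 UMIs against 1315 and 1751.5. The thinned share on day 7 was thus no higher than in cells that should lack Havcr1, while the share before thinning was higher than in them. Whether the segment made this Havcr1 RNA was not tested. Vcam1, an adhesion molecule of failed-repair tubule cells, had 1 UMI in the control, 92.7 CPM on day 4 and 78.5 and 28.7 on day 7 (adjusted p = 3.9e-05). It too had 0 UMIs on days 11 and 14, at least 28.7-fold below day 7 on day 11. After thinning, Vcam1 was in 4.72% and 2.90% of the thick ascending limb cells of day 7, in 7.36% and 4.35% of myeloid-marked barcodes and in 23.8% and 22.5% of other tubule cells (6.96% and 3.62% of thick ascending limb cells and 8.81% and 7.40% of myeloid-marked barcodes before thinning). Whether the segment made this Vcam1 RNA was likewise not tested. Cd44, the hyaluronan receptor, had none in the control and was at least 30.5-fold higher on day 7 (adjusted p = 1.34e-05).

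Krt8 and Anxa2 rose on day 7 as well. Krt8 and Krt18, the simple epithelial keratins, were 62.4 and 6.91 CPM in the control. Krt8 then held 564 and 488 for day 7, 151 and 145 for day 11, and 76.3 and 63.7 for day 14. Its change was 3.07 ± 0.26 (adjusted p = 7.17e-07) for day 7 and -1.08 ± 0.21 (adjusted p = 0.00433) from day 11 to day 14, the latter lost without day 14 replicate 2 (-0.96, adjusted p = 0.106). Krt18 fell further between these days (-3.20 ± 0.39, adjusted p = 0.000248). In thinned cells of day 7, Krt18 was in 15.0% and 9.13% of thick ascending limb cells and in 10.8% and 2.95% of myeloid-marked barcodes. Krt8 was in 37.8% and 37.3% against 14.5% and 5.40%. The part of RNA from other cells in these keratin levels was not tested. Anxa2, a calcium-dependent membrane binding protein whose promoter is printed above with an AP-1 match, was at 68.5 CPM in the control, 607, 559.5 and 996 for days 1, 2 and 4, 736 and 797 for day 7, 251 and 217 for day 11, and 96.3 and 130.3 for day 14. It rose by 3.48 ± 0.28 (adjusted p = 3.81e-07), and its fall from day 11 to day 14 (-1.05 ± 0.20, adjusted p = 0.00473) was lost without day 11 replicate 1 (-0.93, adjusted p = 0.0555) or day 14 replicate 1 (-0.85, adjusted p = 0.121).

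S100a11, a calcium-binding partner of annexins with the same motif in 2 copies, was at 69.9 CPM in the control, 583, 857 and 669 for days 1, 2 and 4, 512 and 816 for day 7, 222 and 350.1 for day 11, and 210.4 and 232 for day 14. Every injured library lay above the control. It was called on day 7 (3.26 ± 0.34, adjusted p = 4.37e-06) and day 14 (1.66 ± 0.32, adjusted p = 0.0153). Lgals3, galectin-3, was also called on both days, with 2.48 ± 0.31 (adjusted p = 2.41e-05) and 1.65 ± 0.30 (adjusted p = 0.00975). These 2 genes, with Lcn2 and Spp1, were the 4 called on day 14. The day 14 count was 0 of 34 in cells with at most 25% mitochondrial UMIs and 2 without day 14 replicate 2. Macrophage markers moved in the same direction on day 7, and their values are given further on.

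Chemokines and genes of the NF-kappaB pathway, which recruit and activate leukocytes, were higher on day 7 in 16 of 19 tested genes (22 listed), with none lower, against 8.64% of all genes higher. Between days 7 and 11, 12 of 19 fell, against 10.3% of all genes. DESeq2 called 10 higher on day 7, and without day 11 replicate 1 the fall was called for 6 in the chemokine and NF-kappaB list. Ccl2, the monocyte chemoattractant, had 0 UMIs in the control and on days 11 and 14. It was 36.0, 11.8 and 119.7 CPM for days 1, 2 and 4, and 66.9 and 4.59 for day 7. The day 7 replicates lay far apart. Day 7 was at least 27.9-fold above the control (adjusted p = 0.00508). After thinning to 1000 UMIs, Ccl2 was detected in 2.36% and 0.830% of the thick ascending limb cells of day 7, in 13% and 12.3% of other tubule cells and in 28.3% and 33.1% of myeloid-marked barcodes, a known source of it. The part of RNA from those cells in this level was not tested.

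Cxcl16, a chemokine with a membrane-bound form, was at 19.1 CPM in the control, 66.2, 86.9 and 122 for days 1, 2 and 4, 103 and 102 for day 7, 30.7 and 44.5 for day 11, and 28.9 and 31.5 for day 14. It rose on day 7 (2.42 ± 0.30, adjusted p = 2.3e-05) and fell by day 11 (-1.46 ± 0.25, adjusted p = 0.000403), with all injured libraries above the control. Cx3cl1 (fractalkine) changed by 1.93 ± 0.36 (adjusted p = 0.000948). Il34, a ligand of the macrophage growth factor receptor, rose by 1.69 ± 0.31 (adjusted p = 0.000784) and was 15.6 and 14.2 on day 14 against 16.2 in the control. Nfkbiz, an atypical inhibitor protein of NF-kappaB, rose by 2.63 ± 0.33 (adjusted p = 2.99e-05), and Nfkbia, the classic inhibitor, by 1.84 ± 0.32 (adjusted p = 0.000504).

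In a list of profibrotic signals and matrix genes 6 of 12 tested (16 listed) rose and 2 fell on day 7, where 8.64% of all genes rose and 10.5% fell. Edn1, endothelin-1, was 7.70 CPM in the control, 25.9, 27.6 and 87.2 for days 1, 2 and 4, 106 and 100.4 for day 7, 11.4 and 16.0 for day 11, and 4.44 and 8.24 for day 14. It rose on day 7 (3.72 ± 0.35, adjusted p = 1.6e-06) and fell by day 11 (-2.93 ± 0.30, adjusted p = 3.43e-06). Pdgfa, a growth factor for stromal cells, rose by 1.98 ± 0.30 (adjusted p = 0.000167), and the basement membrane collagens Col4a1 and Col18a1 by 1.52 ± 0.28 (adjusted p = 0.000998) and 1.94 ± 0.27 (adjusted p = 6.68e-05). Timp3, an inhibitor of matrix proteases, went down and stayed down. It was 1575 CPM in the control, 618, 692 and 565 for days 1, 2 and 4, 452 and 422 for day 7, 595 and 592 for day 11, and 495 and 510.2 for day 14, and its change was -1.85 ± 0.19 (adjusted p = 4.37e-06) on day 7 and -1.65 ± 0.19 (adjusted p = 0.0004) on day 14, the only member of the list called on day 14.

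Interferon-induced genes peaked on day 2. Each of the 16 listed genes was highest in the day 2 library, which is 1 library. On day 7 the test called 8 of 16 higher, but 2 without day 7 replicate 2, 2 with DESeq2 and 3 in cells with at most 25% mitochondrial UMIs, and 8.64% of all genes were higher. Between days 7 and 11, 9 fell, against 10.3% of all genes. Without 1 library the interferon count of falls was 2 (day 7 replicate 2), 5 (day 7 replicate 1), 2 (day 11 replicate 1) and 3 (day 11 replicate 2), and DESeq2 called 1.

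Ifit1, an antiviral RNA-binding protein, was at 4.78 CPM in the control, 24.5, 1420.5 and 67.8 for days 1, 2 and 4, 4.36 and 9.75 for day 7, 2.64 and 2.28 for day 11, and 2.96 and 64.4 for day 14. The day 2 library stood far above every other, and of the day 14 replicates only the second was above the control. Gbp7, a guanylate-binding protein, was at 9.56 CPM in the control, 84.9, 491 and 93.4 for days 1, 2 and 4, 33.5 and 60.2 for day 7, 8.79 and 11.4 for day 11, and 9.63 and 33.7 for day 14. It was called on day 7 (2.36 ± 0.49, adjusted p = 0.00229), a call lost without day 7 replicate 2 (1.80, adjusted p = 0.0746). Xaf1 was at 5.84 CPM in the control, 36.0, 342 and 90.0 for days 1, 2 and 4, 24.7 and 20.1 for day 7, 0.879 and 3.42 for day 11, and 3.70 and 52.4 for day 14. For day 14 against day 11, 4 of 16 were higher, where 1.77% of all genes were, namely Ifit1, Xaf1, Rtp4 and Usp18. None held without day 14 replicate 2, where Ifit1 stood at 0.25 (adjusted p = 0.962), and without day 14 replicate 1 the count was 11, so this rise belongs to 1 of the 2 day 14 libraries.

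MHC class I genes present peptides to T cells. Of 11 tested (12 listed), 9 rose on day 7 (8.64% of all genes), 9 fell from day 7 to day 11 (10.3%), and 4 were higher on day 14 than in the control (0.51%). Without day 7 replicate 2, or without day 11 replicate 1, 5 fell from day 7 to day 11, and without day 14 replicate 1 the MHC class I count on day 14 was 2. B2m, the light chain of all class I molecules, was at 207 CPM in the control, 399.9, 1061 and 2090.4 for days 1, 2 and 4, 1148 and 977 for day 7, 207 and 212 for day 11, and 669 and 551 for day 14. Day 4 was highest, both day 11 libraries lay next to the control, and both day 14 libraries lay above it. H2-K1 and H2-D1 were also highest in the day 4 library, while Psmb8, Psmb9, Psmb10, Tap1, Tap2, Tapbp and H2-T23 were highest in the day 2 library, with 1 library for each of these days. B2m, H2-K1 and Psmb8 were lower in the control and both day 11 libraries than in all 7 others, the same parting of libraries as that of Cwc22 and Gstt1 described below. The part of what these libraries share in the day 14 calls was not tested. The changes were 2.36 ± 0.24 (adjusted p = 3.35e-06) on day 7, -2.34 ± 0.19 (adjusted p = 3.31e-07) from day 7 to day 11 and 1.54 ± 0.18 (adjusted p = 0.000226) from day 11 to day 14. H2-K1, a heavy chain, was at 86.6 CPM in the control, 259, 512 and 1126 for days 1, 2 and 4, 753 and 751 for day 7, 155 and 76.4 for day 11, and 439 and 293 for day 14, with 3.12 ± 0.36 (adjusted p = 1.14e-05) on day 7 and 2.08 ± 0.34 (adjusted p = 0.00542) on day 14 against the control. Psmb8, of the immunoproteasome, changed by 2.62 ± 0.30 (adjusted p = 1.33e-05) and 1.51 ± 0.30 (adjusted p = 0.0194), the latter lost without day 14 replicate 1 (1.37, adjusted p = 0.0937).

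Immediate early genes, which cells switch on within minutes of a stimulus and also during dissociation, were called in most members on days 7 and 11. On day 7, 13 of 20 tested genes (21 listed) rose (8.64% of all genes), on day 11, 16 of 20 were above the control (3.71%), and from day 11 to day 14, 16 of 20 fell, where 3.66% of all genes did. On day 14 against the control 1 was called, which was lower, where 0.677% of all genes were lower. Fos was at 536 CPM in the control, 456, 748 and 541 for days 1, 2 and 4, 717 and 1057 for day 7, 1439.9 and 1819.8 for day 11, and 542 and 648 for day 14. Day 11 was above every other library, and the change was -1.45 ± 0.20 (adjusted p = 0.000599) from day 11 to day 14. Junb was at 198 CPM in the control, 250.3, 344 and 373 for days 1, 2 and 4, 323 and 568 for day 7, 671 and 834 for day 11, and 244 and 228 for day 14, with 1.18 ± 0.29 (adjusted p = 0.00823) on day 7, lost without day 7 replicate 2 (0.70, adjusted p = 0.0524), and -1.67 ± 0.23 (adjusted p = 0.000599) from day 11 to day 14. Nr4a1, an orphan nuclear receptor, was at 7.44 CPM in the control, 4.31, 2.63 and 7.61 for days 1, 2 and 4, 1.45 and 8.60 for day 7, 45.7 and 75.3 for day 11, and 20.7 and 15.7 for day 14 and rose from day 7 to day 11 by 3.22 ± 0.45 (adjusted p = 6.02e-05).

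Klf2, a zinc finger factor, was highest in a day 7 library. It was at 4.52 CPM in the control, 24.5, 60.6 and 51.2 for days 1, 2 and 4, 74.2 and 63.7 for day 7, 40.4 and 22.8 for day 11, and 1.48 and 3.75 for day 14, with 3.89 ± 0.42 (adjusted p = 6.23e-06) on day 7 and -1.07 ± 0.30 (adjusted p = 0.0144) from day 7 to day 11. Klf6 changed by 2.36 ± 0.26 (adjusted p = 7.11e-06) and then -1.05 ± 0.19 (adjusted p = 0.00078). From day 7 to day 11, 9 of the 20 rose and 5 fell, against 14.2% and 10.3% of all genes. The median of 0.39 became -0.17, with 5 higher and 6 lower, under scaling by total UMIs, and without day 11 replicate 2 the immediate early count was 5 higher. Jund, in the same family, was 88.2 and 58.4 on day 14 against 196 in the control (-1.42 ± 0.30, adjusted p = 0.0291), a call lost without day 14 replicate 2 (-1.15, adjusted p = 0.215) or day 11 replicate 1 (-1.41, adjusted p = 0.0503).

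Heat shock genes split. Hspa1a, the inducible HSP70, was at 42.5 CPM in the control, 33.1, 68.5 and 54.0 for days 1, 2 and 4, 49.5 and 126 for day 7, 307 and 288 for day 11, and 87.4 and 68.9 for day 14. It was highest on day 11, with 1.68 ± 0.30 (adjusted p = 0.000539) against day 7 and -1.93 ± 0.30 (adjusted p = 0.0011) from day 11 to day 14. Hspb1, a small heat shock protein, was at 29.5 CPM in the control, 239, 382 and 621 for days 1, 2 and 4, 321 and 288 for day 7, 94.9 and 86.7 for day 11, and 17.0 and 15.7 for day 14 and peaked on day 4. It changed by 3.36 ± 0.28 (adjusted p = 5.23e-07) on day 7 and -2.47 ± 0.25 (adjusted p = 7.71e-05) from day 11 to day 14. Hspd1, the mitochondrial chaperonin, changed by -1.48 ± 0.23 (adjusted p = 0.000208) on day 7, and Hsph1 was lower both on day 7 (-1.68 ± 0.26, adjusted p = 0.00019) and on day 14 (-1.45 ± 0.25, adjusted p = 0.007, lost without day 14 replicate 2 at -1.32, adjusted p = 0.0932). On day 7, 2 of 12 rose and 4 fell, against 8.64% and 10.5% of all genes, with a median of -0.48 that became 0.20 under scaling by total UMIs. On day 14 against the control 3 fell (0.677% of all genes), and none did without day 14 replicate 2 or in cells with at most 25% mitochondrial UMIs for the heat shock list.

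**Figure D3:**
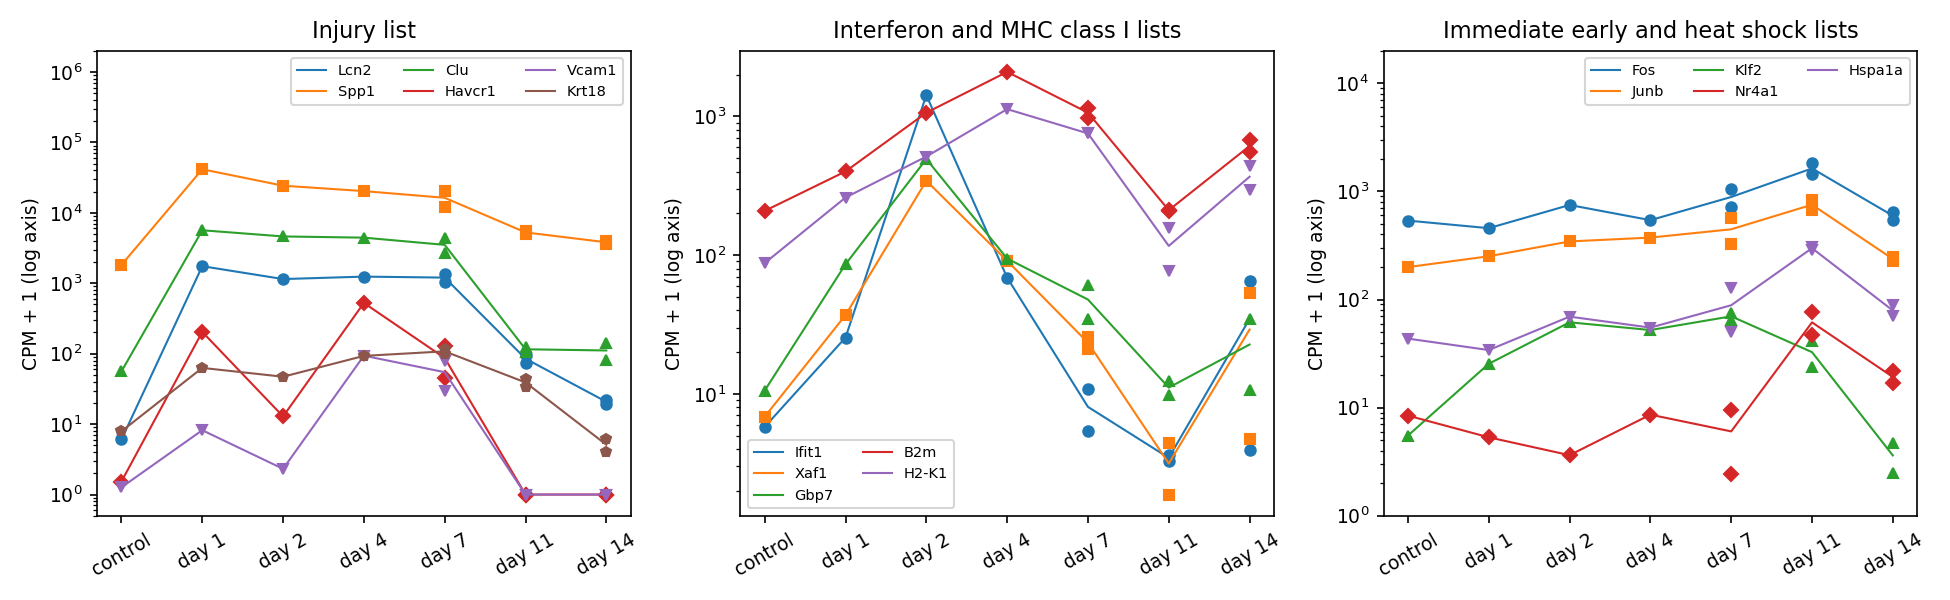
Levels of injury genes, interferon and MHC class I genes, and immediate early and heat shock genes (vertical log axes, CPM + 1) in each library by day, with points for libraries and lines through the means of a day. Lcn2 is at least 1043 on days 1 to 7, Ifit1 reaches 1420.5 in the day 2 library, and Fos is highest in the 2 day 11 libraries at 1439.9 and 1819.8.

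Cell cycle genes rose on day 7 in 13 of 20 tested (8.64% of all genes), with none lower, and 9 fell from day 7 to day 11 (10.3%). On days 11 and 14 none was called against the control (8.95% and 1.19% of all genes). The proliferation count depended on the method, with 6 by DESeq2 on day 7 and 1 of 8 in cells thinned to 1000 UMIs. Without day 7 replicate 2, 5 fell from day 7 to day 11, and without day 11 replicate 1, 4 did. Without day 14 replicate 2, 5 were called higher on day 14 against the control. Top2a, a topoisomerase of dividing cells, was at 1.33 CPM in the control, 87.7, 13.2 and 42.2 for days 1, 2 and 4, 33.5 and 48.8 for day 7, 1.76 and 1.14 for day 11, and 12.6 and 2.25 for day 14. Its day 7 change was 4.91 ± 0.63 (adjusted p = 3.16e-05), and the first day 14 replicate stood above the second. Mki67, the Ki-67 antigen, was at 3.98 CPM in the control, 57.5, 14.5 and 32.5 for days 1, 2 and 4, 34.9 and 26.4 for day 7, 2.64 and 5.70 for day 11, and 20 and 3.0 for day 14, with 2.87 ± 0.62 (adjusted p = 0.00322) on day 7. Tpx2, a spindle factor, had 0 UMIs in the control and on day 11 and was at least 20.1-fold higher on day 7 than in the control (adjusted p = 0.000329).

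Of 12 tested p53 targets (14 listed) 4 rose and 1 fell on day 7, against 8.64% and 10.5% of all genes. Cdkn1a, the cell cycle inhibitor p21, was at 9.03 CPM in the control, 63.3, 75 and 94.8 for days 1, 2 and 4, 164 and 82.0 for day 7, 16.7 and 26.2 for day 11, and 7.41 and 3.75 for day 14. It rose on day 7 (3.70 ± 0.44, adjusted p = 1.61e-05) and fell by day 11 (-2.49 ± 0.36, adjusted p = 8.91e-05). Gadd45b rose by 2.0 ± 0.36 (adjusted p = 0.00081) and Ccng1 changed by -1.10 ± 0.28 (adjusted p = 0.0101), a call lost under scaling by total UMIs (-0.43, adjusted p = 0.231). Btg2, an antiproliferative gene that is also an immediate early gene, was 149.8 and 147 on day 7 and 465 and 421 on day 11 (1.58 ± 0.21, adjusted p = 3.61e-05).

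The series asks about developmental genes. Of 18 nephrogenic genes 11 were tested, and 3 rose and 3 fell on day 7 (8.64% and 10.5% of all genes), with a median of 0.05 that became 0.72 (5 higher, none lower) under scaling by total UMIs. The other 7 were too rare to test. None was called on day 11 or day 14 against the control, where 8.95% and 1.19% of all genes were. Sox4, a factor of embryonic epithelia, was at 142 CPM in the control, 409.9, 363 and 262 for days 1, 2 and 4, 378 and 422 for day 7, 139 and 104 for day 11, and 94.1 and 74.9 for day 14. All libraries of days 1 to 7 were above all others, with 1.5 ± 0.26 (adjusted p = 0.000552) on day 7 and -1.72 ± 0.22 (adjusted p = 2.27e-05) from day 7 to day 11. Cd24a, a surface protein of nephron progenitors and injured tubules, rose by 1.18 ± 0.24 (adjusted p = 0.0021), and Npnt, a matrix ligand of integrins, by 1.54 ± 0.44 (adjusted p = 0.0203), lost without day 7 replicate 1 (0.84, adjusted p = 0.134). Bmp7 changed by -1.13 ± 0.33 (adjusted p = 0.0245), a call lost without day 7 replicate 2 (-0.95, adjusted p = 0.174), as were all 3 falls of the nephrogenic list, and under scaling by total UMIs (-0.46, adjusted p = 0.29).

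The list of NRF2 targets and metallothioneins holds genes that detoxify and bind metals. On day 7, 1 of 13 rose and 1 fell, a share near that of all genes (8.64% and 10.5%). From day 7 to day 11, 6 rose and 1 fell, against 14.2% and 10.3% of all genes, and the count became 2 and 3 under scaling by total UMIs. Gsta4, a glutathione transferase, was at 81.8 CPM in the control, 41.7, 15.8 and 33.9 for days 1, 2 and 4, 13.1 and 19.5 for day 7, 89.6 and 100.3 for day 11, and 121 and 102 for day 14, with -2.24 ± 0.30 (adjusted p = 4.56e-05) and 2.45 ± 0.28 (adjusted p = 9.34e-06). Mt1, a metallothionein, was 5106 on day 1 against 1949 in the control and rose by 1.09 ± 0.21 (adjusted p = 0.00095) from day 7 to day 11, a call lost under scaling by total UMIs (0.53, adjusted p = 0.0513). Of 11 tested genes of apoptosis and ferroptosis 2 fell and none rose on day 7 (10.5% and 8.64% of all genes), while scaling by total UMIs gave 6 higher and none lower. Gpx4, which protects lipids from peroxidation, changed by -0.74 ± 0.21 (adjusted p = 0.019) on day 7, lost under scaling by total UMIs (-0.07, adjusted p = 0.802), and 1.23 ± 0.18 (adjusted p = 9.38e-05) from day 7 to day 11. Tfrc, the transferrin receptor, changed by -1.49 ± 0.35 (adjusted p = 0.00647) on day 7, a call lost without day 7 replicate 2 (-1.09, adjusted p = 0.116) or under scaling by total UMIs (-0.82, adjusted p = 0.0832), and by 2.02 ± 0.32 (adjusted p = 0.000218) from day 7 to day 11.

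**Figure D4:**
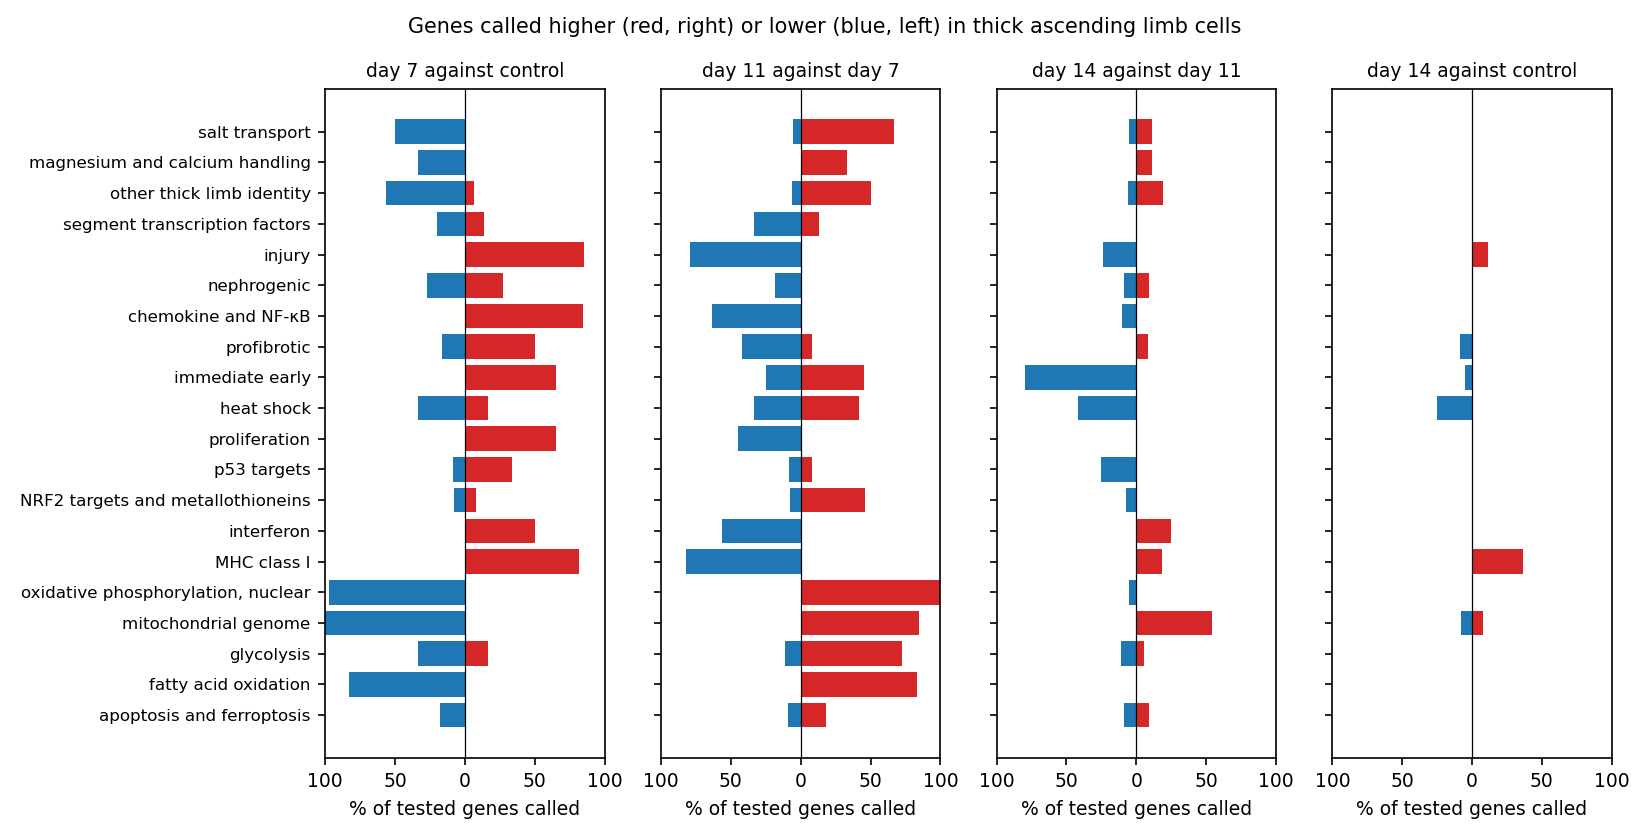
Share of the tested genes of each of the 20 lists that were called higher (red, to the right) or lower (blue, to the left) in thick ascending limb cells at an adjusted p under 0.05, in 4 comparisons. Injury genes point right on day 7 and oxidative phosphorylation genes left, and the sides change from day 7 to day 11. In day 14 against the control most lists have no bar.

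Beyond the lists, genes were taken by the size of their called change. Among the more abundant genes whose libraries did not overlap, the largest rises on day 7 were those of Lyz2, Ankrd1, Lcn2, Gbp2, Havcr1 and Anxa3. Ankrd1, a nuclear target of YAP signalling, was at 0 CPM in the control, 86.3, 26.3 and 193 for days 1, 2 and 4, 50.9 and 64.2 for day 7, 0 and 1.14 for day 11, and 0 and 0.749 for day 14, at least 75.9-fold higher on day 7 than in the control (adjusted p = 4.72e-07). Gbp2, a guanylate-binding protein, had 1 UMI in the control and 40.7 and 52.8 CPM on day 7. Anxa3 had 3 UMIs in the control and 132 and 84.3 CPM on day 7 (adjusted p = 2.38e-07). Lyz2, lysozyme of myeloid cells, had 0 UMIs in the control and 372 and 121 on day 7, and it is 1 of the macrophage markers.

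Macrophage markers were higher on day 7 in 8 of 9 tested genes (8.64% of all genes), and 7 fell by day 11 (10.3% of all genes). Their sum was 7.97 CPM in the control, 109, 39.5 and 212 for days 1, 2 and 4, 671 and 274 for day 7, 55.3 and 112 for day 11, and 17.8 and 31.5 for day 14. In the control 4 of the 9 markers were at 0, and on day 7 none. The sum is less than 0.1% of the cells' UMIs on day 7 (0.0878% and 0.0349%). Cd14, a lipopolysaccharide coreceptor, was at 2.13 CPM in the control, 121, 286 and 127 for days 1, 2 and 4, 156 and 165 for day 7, 22.8 and 29.6 for day 11, and 2.96 and 4.50 for day 14, and fell from day 11 to day 14 by -2.77 ± 0.41 (adjusted p = 0.000735). Whether macrophage RNA plays a part in the rises of injury, chemokine, interferon and MHC class I genes was not tested.

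The largest falls on day 7 were those of Nccrp1, Slco1a1, Acsm3, Angptl7, Cyp4b1 and Ugt3a2. Slco1a1, Acsm3 and Cyp4b1 are abundant in proximal tubule. Nccrp1, an F-box family protein, had 109 CPM in the control, 0 in every library of days 1 to 7, 89.6 and 45.6 for day 11, and 25.2 and 26.2 for day 14. It was at least 88.3-fold lower on day 7 than in the control (adjusted p = 5.86e-07) and remained lower on day 14 (-2.08 ± 0.33, adjusted p = 0.00524). Cyp4b1, a cytochrome P450, was at 447 CPM in the control, 23, 122 and 110.0 for days 1, 2 and 4, 1.45 and 8.60 for day 7, 163 and 522 for day 11, and 296 and 547 for day 14. It changed by -6.11 ± 0.62 (adjusted p = 3.7e-06) and rose by 5.72 ± 0.60 (adjusted p = 3.7e-06).

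Of the 24 proximal tubule markers 23 were lower on day 7 and none higher (10.5% and 8.64% of all genes). From day 7 to day 11, 22 rose (14.2% of all genes). Their summed level was 11631 CPM in the control, 978, 5991 and 3069 for days 1, 2 and 4, 521 and 668 for day 7, 4872 and 10515 for day 11, and 7407 and 10625 for day 14. Kap, an androgen-regulated proximal transcript, was at 6929 CPM in the control, 184, 1037 and 1503 for days 1, 2 and 4, 16.0 and 233 for day 7, 2522 and 5727 for day 11, and 4265 and 5105 for day 14 and was named among the largest rises from day 7 to day 11 (4.92 ± 0.61, adjusted p = 2.1e-05), as was Miox (5.96 ± 0.47, adjusted p = 3.31e-07), the inositol oxygenase of proximal tubule. Their fall and return ran beside that of the identity, oxidative phosphorylation and fatty acid oxidation genes above. Without cells over 10% proximal UMIs, day 7 against the control called 2165 genes in place of 2181. Day 11 against day 7 called 2776 in place of 2796. That run left out 7 cells in the control and 0 on day 7, so it cannot test a low share of proximal RNA in the other cells. The part of such RNA in those results was not tested.

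Day 14 was nearest to the control, with 135 genes called of 11369 and 1851 at an unadjusted p under 0.05. The largest rises there were those of Hbb-bs, Hbb-bt, Cwc22, Gstt1, Dbp and Slc15a2. Hbb-bs, adult beta-globin, was at 1.33 CPM in the control, 293, 502 and 189 for days 1, 2 and 4, 118 and 8.60 for day 7, 340.0 and 197 for day 11, and 38.5 and 525 for day 14. The second day 14 replicate lay far above the first, and erythroid markers summed to 99.3 and 1603 CPM in them, against 5.58 in the control and 18.4 to 1509 in the other injured libraries. Hbb-bt was not called without day 14 replicate 2 (adjusted p = 0.143). Dbp, a clock-controlled factor, was 116 and 45.0 on day 14 against 12.8 in the control (2.65 ± 0.52, adjusted p = 0.0177), a call lost without day 14 replicate 1 (1.81, adjusted p = 0.0642).

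Cwc22, a splicing factor, was at 20.5 CPM in the control, 193, 118 and 145 for days 1, 2 and 4, 379.6 and 181 for day 7, 9.66 and 13.7 for day 11, and 232 and 151 for day 14. The control and both day 11 libraries held at most 20.5 and the other 7 libraries at least 118. Gstt1, a glutathione transferase, parted the same libraries, at 28.2 CPM in the control, 92.1, 175 and 192 for days 1, 2 and 4, 68.4 and 231 for day 7, 19.3 and 49.0 for day 11, and 241 and 269 for day 14. AA465934, an uncharacterised transcript, parted them in the other direction, at 147 CPM in the control, 1.44, 1.32 and 3.46 for days 1, 2 and 4, 4.36 and 6.31 for day 7, 184 and 115 for day 11, and 6.67 and 5.24 for day 14. Slc15a2, a peptide transporter, was at 36.1 CPM in the control, 57.5, 109 and 78.2 for days 1, 2 and 4, 90.2 and 115 for day 7, 20.2 and 37.6 for day 11, and 185 and 155 for day 14, again with the control and day 11 lowest. For day 14 against the control the changes were 3.22 ± 0.43 (adjusted p = 0.00133) for Cwc22, 3.17 ± 0.54 (adjusted p = 0.00577) for Gstt1, -4.60 ± 0.36 (adjusted p = 3.62e-06) for AA465934 and 2.23 ± 0.32 (adjusted p = 0.0017) for Slc15a2. The labels give no strain, sex or batch, so what these libraries share was not tested.

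The largest falls on day 14 were those of AA465934, Gm26924, Angptl7, Syn3, Nccrp1 and Arhgap5. Gm26924 was at 1507 CPM in the control, 1133, 591 and 195 for days 1, 2 and 4, 263 and 312 for day 7, 314 and 262 for day 11, and 249 and 217 for day 14, with the control and day 1 highest. Arhgap5, a GTPase activating protein, was 724 in the control and 184 and 163 on day 14 (-2.06 ± 0.23, adjusted p = 0.000255). All 9 injured libraries lay below the control, at 103 to 203. Syn3, a synapsin gene, changed by -2.27 ± 0.25 (adjusted p = 0.000255). Timp3, whose fall is given above, lies within Syn3 on the other strand, and the labels do not say that counting used strand, so reads of the pair cannot be told apart. Angptl7 changed by -6.27 ± 0.51 (adjusted p = 4.72e-07) on day 7 and was still lower on day 14 (-2.45 ± 0.33, adjusted p = 0.00138).

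From day 11 to day 14 the largest falls were those of Lyz2, AA465934, Klf2, Nupr1, Krt18 and Cd14. Nupr1, a stress-induced chromatin protein, was at 6.64 CPM in the control, 74.8, 138 and 106 for days 1, 2 and 4, 91.6 and 196 for day 7, 36.0 and 26.2 for day 11, and 1.48 and 4.50 for day 14. It rose on day 7 (4.47 ± 0.47, adjusted p = 4.51e-06) and fell from day 11 to day 14 (-3.36 ± 0.57, adjusted p = 0.00193), with both day 14 libraries below the control.

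Claudins were counted cell by cell, where a transcript that a cell holds can be missed. After thinning to 1000 UMIs, Cldn10 was detected in 46.2% of the control's cells and Cldn16 in 15.0%. Both were detected in 6.17%, against 6.94% if the detections were independent. On day 14, Cldn10 was in 48.5% and 55.2% of cells and Cldn16 in 26.5% and 26.0%, with both in 11.7% and 10.9%. The share with Cldn16 was above the control's in every injured library, and the share with both was below that of independent detection in 9 of the 10 libraries, which was not tested. Macula densa cells are the segment's salt sensors. Their 4 markers other than Slc12a1 summed to 14.1 CPM in the control, 91.9 and 87.7 for day 14, and 10.3 to 40.3 in the other libraries. Of these 4, Pappa2 alone was called on day 14 against the control (3.25 ± 0.43, adjusted p = 0.00133), and it is named here after its values were seen. It was detected in 4 of 760 cells of the control and in 6 of 395 and 5 of 398 on day 14. The call thus rests on few cells. At this depth the number of macula densa cells could not be counted. The median of Umod after thinning was 5 UMIs per cell in the control, 4 and 6 for day 7, 9 and 11 for day 11, and 8 and 7 for day 14.

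The changes were set against those of other tubule cells, 21364 barcodes with at least 3 UMIs over Cdh16, Epcam, Krt8, Krt18, Pax8, Lrp2, Cubn, Slc34a1 and Cldn2 and none of Slc12a1, Umod or the markers of other cells. These hold several segments whose proportions can shift with time, so a difference may lie in that mixture, which was not tested. Their median share of proximal marker UMIs was 7.52% in the control and 0.132% and 0.148% on day 7. Days 1, 2 and 4 had 0.750%, 2.65% and 1.62%, day 11 had 8.94% and 9.09%, and day 14 had 7.87% and 7.10%. Krt8, which helps choose them, was in 6.07% of them in the control after thinning and in 55.3% and 44.5% on day 7. A thick ascending limb cell without counts of Slc12a1 and Umod can be among them. The difference of the changes was tested in 1 model with a block for each library over 13149 genes. It called 1961 genes on day 7 against the control (14.9%), 914 higher (6.95%) and 1047 lower (7.96%) in the thick ascending limb. On day 11 it called 86 (0.654%), 23 higher and 63 lower, and on day 14, 166 (1.26%), 76 higher (0.578%) and 90 lower (0.684%). For day 11 against day 7 it called 1421 (10.8%), 702 higher (5.34%) and 719 lower (5.47%).

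Ptgds, prostaglandin D synthase, led the genes whose day 7 change was lower in the thick ascending limb. In thick ascending limb cells it was at 82.6 CPM in the control, 8.63, 18.4 and 45.7 for days 1, 2 and 4, 33.5 and 30.4 for day 7, 170.4 and 70.7 for day 11, and 21.5 and 23.2 for day 14. In other tubule cells it was 1.76 CPM in the control, 12.5, 62.5 and 98.1 for days 1, 2 and 4, 123 and 162 for day 7, 35.3 and 40.6 for day 11, and 5.33 and 14.6 for day 14. It fell on day 7 in the thick ascending limb (-1.39 ± 0.38, adjusted p = 0.0149) while the level in other tubule cells was higher in every injured library than in the control, and the difference of the changes was -7.86 ± 0.44 (adjusted p = 9.16e-17). Sytl2, a factor of vesicle transport, had log2 changes of 0.54 against 5.58 in other tubule cells, a difference of -5.16 ± 0.32 (adjusted p = 9.64e-16). Apoe, apolipoprotein E, differed by -4.31 ± 0.34 (adjusted p = 1.27e-12), and its thick ascending limb replicates on day 7 were 474 and 138.

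Other genes had a higher change in the thick ascending limb on day 7, given here as its log2 value against that of other tubule cells. Atp11a, a phospholipid flippase, had 1.01 against -2.32, a difference of 3.20 ± 0.25 (adjusted p = 1.23e-12). Adamts1, a secreted protease, had 4.36 against 2.03, a difference of 2.23 ± 0.22 (adjusted p = 7.73e-10). Odc1, of polyamine synthesis, was lower in both, with -2.41 against -5.19, a difference of 2.72 ± 0.28 (adjusted p = 1.38e-09). From day 7 to day 11 the change of Wfdc15b was higher in the thick ascending limb (3.71 against 1.0, difference 2.70 ± 0.23, adjusted p = 1.09e-11), as was that of Pkm (1.80 against -0.38, difference 2.22 ± 0.19, adjusted p = 1.09e-11).

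On day 14 Hspa1a differed by 2.15 ± 0.27 (adjusted p = 1.69e-06), with changes of 0.88 against -1.28. Tmem178, a membrane protein, was 60.7 and 61.4 CPM on day 14 against 16.5 in the control, and its log2 change exceeded that of other tubule cells by 1.87 ± 0.29 (adjusted p = 5.9e-05). Lgals3, called in the injury list on day 14, had 1.65 against 0.32, a difference of 1.33 ± 0.21 (adjusted p = 0.000145). Cxcl12, a chemokine, had the lower change in the thick ascending limb (0.86 against 3.45, difference -2.57 ± 0.36, adjusted p = 1.67e-05). Its levels in other tubule cells were 13.3 CPM in the control, 7.42, 31.1 and 24.5 for days 1, 2 and 4, 5.21 and 1.94 for day 7, 13.3 and 10.9 for day 11, and 188 and 116 for day 14.

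**Figure D5:**
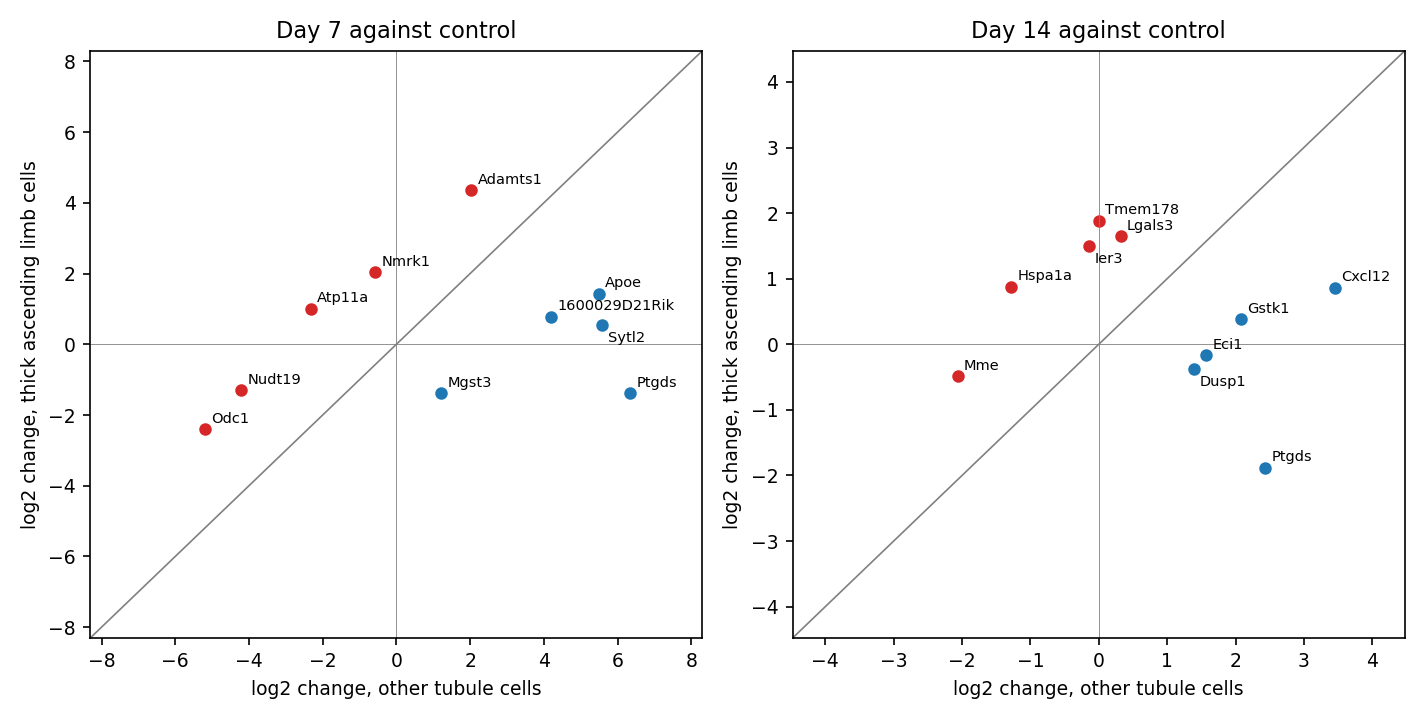
Log2 changes against the control in other tubule cells (horizontal axis) and in thick ascending limb cells (vertical axis) for the genes with the largest tested differences, on day 7 and day 14. Red points lie above the diagonal of equal change and blue points below it, and Ptgds lies farthest below it on day 7, with a difference of -7.86.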

How the data were processed

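Single-cell suspensions of mouse kidney cortex were profiled by Drop-seq in 10 libraries. The authors deposited 1 table of raw counts per library, genes by cell barcodes. Per the submitters' processing notes, reads were aligned with Bowtie2 2.2.7 to mm10. The sources used here do not name the annotation, the strand setting or whether counts are of unique molecules, so "UMI" stands for a deposited count. Barcodes with under 500 genes or over 50% mitochondrial counts (611 in the control, 0 to 265 in the others) were left out. Those under 500 genes numbered 5362 and 5424 in the day 11 libraries and 0 in every other library. The part of this difference between the deposited tables in the day 11 results was not tested. No doublet caller was run, and barcodes with counts of Slc12a3, Aqp2, Ptprc or Pecam1 were removed from the thick ascending limb cells.

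Counts were summed over the cells of each library (525299 to 4642124 counts) and fitted in edgeR 4.0.16 (R 4.3.3) with TMM factors, its low-count filter and 1 term per group over all 10 libraries, so the spread comes from days 7, 11 and 14 (3 residual degrees of freedom) and the spread of the single control is taken to equal theirs. SE is the change divided by the root of the F statistic. The difference from other tubule cells was fitted with a block per library. Both fits were also run on simulated data, and the outcome of those runs is not given here. The members, the gene lists and the tests were chosen with earlier results of these data known. The text names anchor genes of the segment, the 6 genes with the largest called change per direction in 4 comparisons (average log2 CPM of at least 5, no overlap of libraries), up to 4 called genes of highest abundance and the extremes of each list, and the 5 genes per direction with the smallest p among called differences from other tubule cells. Some genes that this rule names are not reported here. Alternatives were other scalings, no low-count filter, only the groups compared, at most 25% mitochondrial counts and a threshold of 6. Others were no cells over 10% proximal counts, no top 5% of cells by depth and cells thinned to 1000 counts. The rest were DESeq2 1.42.0, each replicate left out and a replicate block. Scaling by total counts and leaving out mitochondrial genes were added after the data were seen.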

Additional observations from a re-analysis of the deposited data

Results flagged for a closer look

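The genes below were singled out because the test of the difference itself, in the model over thick ascending limb cells and other tubule cells, found that their change differed between the 2 kinds of cell at an adjusted p under 0.05 (edgeR quasi-likelihood F test, Benjamini-Hochberg). For each comparison and direction the 5 genes with the smallest p are given. Each value is the log2 change in the thick ascending limb minus that in other tubule cells ± SE. In each comparison with the control the other side is the same single library. Other tubule cells mix segments, and the part of that mixture in these values was not tested.

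On day 7 against the control, the 5 genes with the smallest p among the higher changes were led by Atp11a at 3.20 ± 0.25 (adjusted p = 1.23e-12) and Nudt19, a peroxisomal hydrolase of coenzyme A, at 2.79 ± 0.25 (adjusted p = 8.75e-11). The others of these were Nmrk1, a kinase of NAD synthesis, at 2.53 ± 0.25 (adjusted p = 7.1e-10), Adamts1 at 2.23 ± 0.22 (adjusted p = 7.73e-10) and Odc1 at 2.72 ± 0.28 (adjusted p = 1.38e-09). Lower were Ptgds at -7.86 ± 0.44 (adjusted p = 9.16e-17) and Sytl2 at -5.16 ± 0.32 (adjusted p = 9.64e-16). So were 1600029D21Rik at -3.50 ± 0.25 (adjusted p = 7.57e-14), Mgst3, a microsomal glutathione transferase, at -2.69 ± 0.20 (adjusted p = 5.09e-13) and Apoe at -4.31 ± 0.34 (adjusted p = 1.27e-12).

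On day 11 against the control the higher changes were those of Egr1, an immediate early factor, at 1.44 ± 0.20 (adjusted p = 3.04e-05) and Tfrc at 1.57 ± 0.23 (adjusted p = 5.58e-05). Gusb, a lysosomal glucuronidase, at 2.2 ± 0.36 (adjusted p = 0.000285), Smpd1, the acid sphingomyelinase, at 1.32 ± 0.26 (adjusted p = 0.00436) and Tmem178 at 1.54 ± 0.32 (adjusted p = 0.00895) were also higher. Tmem178 missed the threshold without day 11 replicate 2, at 1.35 (adjusted p = 0.0918). The lower ones were Ptgds at -3.99 ± 0.48 (adjusted p = 2.45e-06) and Acot2, a mitochondrial acyl-CoA thioesterase, at -2.27 ± 0.30 (adjusted p = 1.47e-05). Also lower were Apoe at -2.57 ± 0.35 (adjusted p = 2.13e-05), Sparc, a matrix protein, at -2.26 ± 0.35 (adjusted p = 0.000197) and Eci1, of fatty acid oxidation, at -1.32 ± 0.21 (adjusted p = 0.000197).

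On day 14 against the control the higher changes were those of Hspa1a at 2.15 ± 0.27 (adjusted p = 1.69e-06) and Mme, the membrane protease neprilysin, at 1.56 ± 0.23 (adjusted p = 3.79e-05). Also higher were Tmem178 at 1.87 ± 0.29 (adjusted p = 5.9e-05), Lgals3 at 1.33 ± 0.21 (adjusted p = 0.000145) and Ier3 at 1.54 ± 0.25 (adjusted p = 0.000155). The lower ones were Eci1 at -1.75 ± 0.21 (adjusted p = 9.8e-07) and Ptgds at -4.28 ± 0.53 (adjusted p = 1.69e-06). Also lower were Dusp1, a phosphatase of stress kinases, at -1.77 ± 0.22 (adjusted p = 1.69e-06), Gstk1, a mitochondrial and peroxisomal glutathione transferase, at -1.70 ± 0.23 (adjusted p = 9.73e-06) and Cxcl12 at -2.57 ± 0.36 (adjusted p = 1.67e-05).

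From day 7 to day 11 the higher changes were those of Mgst1 at 2.32 ± 0.17 (adjusted p = 9.54e-13) and Ptgds at 3.87 ± 0.31 (adjusted p = 9.22e-12). Higher as well were Wfdc15b at 2.70 ± 0.23 (adjusted p = 1.09e-11), Pkm at 2.22 ± 0.19 (adjusted p = 1.09e-11) and Anxa5, a phospholipid-binding annexin, at 2.08 ± 0.18 (adjusted p = 3.13e-11). The lower ones were Atp11a at -3.34 ± 0.25 (adjusted p = 9.54e-13) and Adamts1 at -2.28 ± 0.19 (adjusted p = 9.77e-12). Lower as well were Ethe1, a mitochondrial enzyme of sulfide breakdown, at -2.53 ± 0.21 (adjusted p = 9.82e-12), Car4, a membrane-bound carbonic anhydrase, at -2.68 ± 0.23 (adjusted p = 2.61e-11) and Nudt19 at -2.51 ± 0.24 (adjusted p = 2.46e-10). Atp11a, Adamts1 and Nudt19 stood higher on day 7 against the control and lower from day 7 to day 11, and these comparisons share the day 7 libraries. No group had the 4 libraries that a check for a library far from the others needs.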

How the results depend on the processing

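Of 400 named gene results 348 were called, and 212 of these kept direction and call in every alternative run. Over 6881 alternatives, 6318 kept both, 532 lost the call, 28 gained it and 3 turned direction, all under scaling by total UMIs: Atp1b1 from day 7 to day 11 at -0.0409, and Hspa8 and Ldhb on day 7 at 0.0244 and 0.0512. The day 7 libraries' scaling and the single control limit every count below, and the cause of these shifts was not tested.

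The number of genes called on day 7 against the control was 2181 and became 990 in cells thinned to 1000 UMIs, 824 with DESeq2 and 4174 under total UMIs. For day 11 against the control 1017 became 1895 with only the groups compared, 442 at most 25% mitochondrial UMIs, 552 thinned and 238 with DESeq2 (135 higher, 103 lower), and the split was 401 and 878 with no filter. For day 14 against the control 135 became 409 with no filter, 1288 with only the groups compared, 28 at most 25% mitochondrial UMIs, 291 without the top 5% of cells and 34 with DESeq2 (19 higher, 15 lower), and the split was 73 and 50 without day 14 replicate 1 and 48 and 24 without replicate 2. From day 7 to day 11, 2796 became 1504 thinned, 1316 with DESeq2 and 4313 under total UMIs, and from day 7 to day 14, 2412 became 1151, 1063 and 4383 (653 higher, 3730 lower, against 1415 and 997). From day 11 to day 14, 617 became 396 at most 25% mitochondrial UMIs and 326 with DESeq2 (60 higher, 266 lower), and 79 higher and 310 lower without day 11 replicate 1. The difference from other tubule cells on day 11 was called for 40 genes with the comparator threshold at 6 UMIs and 170 with the member threshold at 6, and on day 14 for 103 with the former.

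Without 1 library the counts ranged from 1652 to 2110 (day 7), 250 to 1568 (day 11) and 72 to 240 (day 14) against the control, 1630 to 2634 (day 7 to day 11), 1526 to 2286 (day 7 to day 14) and 191 to 798 (day 11 to day 14). For the differences from other tubule cells they ranged from 975 to 2080, 68 to 150 and 137 to 253 against the control and 745 to 1511 from day 7 to day 11.

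The cells' share was 4.91% in the control, 5.94% on day 11 and 3.30% on day 14 at most 25% mitochondrial UMIs, 8.13% and 6.63% on days 11 and 14 thinned, and 5.10%, 2.86%, 3.30% and 4.16% on days 1, 2, 4 and 7 at a threshold of 6. Replicate numbers did not pair libraries (correlations of 0.054, -0.052 and 0.014). With the replicate block over days 7, 11 and 14 the counts were 2862, 2402 and 693.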
